A study of Mus musculus with 4 samples.

Results

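The genes described here are 10 members of the antioxidant programme driven by NRF2, measured in mouse embryonic fibroblasts (MEFs) labelled as knockouts of cyclin G1 or cyclin G2. They are Nfe2l2, which encodes NRF2, its inhibitor Keap1, and the targets Gclc, Gclm, Gsr, Txnrd1, Gsta4, Gstm1, Nqo1 and Hmox1. Members were chosen by gene name: every gene probe carrying 1 of these names in the scanner files was taken. The 10 genes had 15 probes on 24 spots, out of 41174 gene probes on the array and 27745 distinct names.

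NRF2 is a transcription factor that is held in the cytoplasm by KEAP1, which presents it to a CUL3 ubiquitin ligase for degradation. Electrophiles and oxidants modify cysteines of KEAP1, NRF2 then escapes degradation, pairs with a small Maf protein and binds antioxidant response elements near genes for glutathione synthesis, thioredoxin recycling and detoxification. NRF2 is regulated mainly through protein stability, so its own mRNA is no measure of its activity. In cultured fibroblasts the pathway is known for its response to oxygen and to thiol-reactive compounds. The growth medium described in the methods of the study held 2-mercaptoethanol, a reducing agent, for all cultures.

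Cyclin G1 and cyclin G2 are atypical cyclins that bind regulatory subunits of the phosphatase PP2A and act in the DNA damage response. G1KO MEFs (CycG1-/-) were compared with CycG1+/+ MEFs, and G2KO MEFs (CycG2-/-) with CycG2+/+ MEFs, called WT below. All 4 cultures came from embryos, were untreated and were harvested in logarithmic growth, and the strain was given as C57BL/6J (C57BL/7J in some labels of the G2KO pair). In G1KO all protein-coding exons of Ccng1 had been removed, while the part of Ccng2 removed in G2KO is not given in the sources used here. Each comparison set 1 knockout culture against 1 WT culture on 2 arrays of 2 colours, with the dyes Cy5 and Cy3 exchanged between them. The knockout was in Cy5 on the first array and in Cy3 on the second.

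A dye exchange repeats the same RNA, so each genotype had n = 1 culture and no test between genotypes was possible. An error written as ± is the SD between the 2 arrays and is technical. A probe was tested when it was well above background on both arrays in at least 1 genotype. It passed the 2-fold rule when both arrays put its log2 ratio of knockout over WT at 1 or more, or both at -1 or less. All 120 channel values of the 15 member probes were well above background. With 2 arrays a pair, precision is limited by their number.

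As a check of the labels, Ccng1 was lower in G1KO than in WT by 102-fold and 31.2-fold at its 2 probes. The Ccng2 probe differed by 0.09 ± 0.27 (log2) in the G2KO comparison. It did not show the labelled deletion, and whether it lies inside the deleted part is unknown, so this culture is called the RNA labelled G2KO. Ccng1 was 6.35-fold and 5.62-fold higher in that RNA than in its WT. The X-inactivation transcript Xist was 186-fold higher in G1KO and 151-fold higher in the RNA labelled G2KO, and the Y-linked Eif2s3y and Ddx3y were lower in both. Sex and genotype cannot be told apart in either comparison.

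All 8 fibroblast marker genes were well above background in both comparisons. Pdgfrb was 2.13-fold higher in G1KO, and 5 others (Col1a1, Col1a2, Col3a1, Thy1 and Fn1) were lower in the RNA labelled G2KO. There 9 of 18 fibroblast probes passed the 2-fold rule as lower. Fn1 passed at -1.5 (log2) but not at its other probes (-0.92, -0.69 and -0.61), and Vim read 0.08 and 0.05. The mean log2 signal of the fibroblast probes was 12.58 in the WT of the G2KO pair and 11.28 in the RNA labelled G2KO. All 5 mesothelial markers (Wt1, Msln, Upk3b, Lrrn4 and Upk1b) were lower in G1KO, with a mean log2 signal of 14.84 in WT and 10.54 in G1KO. The neural markers Nes and Sox2 were higher in the RNA labelled G2KO, and Nes and S100b in G1KO. The epithelial keratins Krt8 and Krt14 were lower in G1KO. Msln was 3.02-fold higher in the RNA labelled G2KO, where the other 4 mesothelial markers were not well above background in either genotype. Of 5 macrophage and blood genes, the G1KO pair had 4 tested and the G2KO pair 3, with Ptprc in neither. Of 4 endothelial genes, the G1KO pair had 1 tested (Kdr) and the G2KO pair 0. None of the macrophage, blood and endothelial genes tested passed the 2-fold rule. The part of these differences in the results below was not tested, and fewer cells of a type and less RNA per cell cannot be told apart in such bulk RNA.

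The promoter windows of RefSeq (GRCm38.p6, from 250 bases before to 50 after a gene start) held 6 of the 10 members. Hmox1, Gclc, Gsta4 and Gsr were not among them. Each window was searched on both strands for the core of the antioxidant response element, TGACNNNGC, and for the AP-1 site TGANTCA, whose letters can overlap with those of the element. The core stood in 3 of 9 member windows, those of Nfe2l2, Gclm and 1 of 3 for Txnrd1, and in 12.4% of all 32851 windows. The AP-1 site stood in 0 member windows and in 7.81% of all. The sequences below are shown because they hold a match to the core of the element through which NRF2 binds. The core or its reverse complement is in capitals, and sequences run 5′ to 3′ on the strand of the gene.
Nfe2l2, chr2:75704870-75704913, minus strand: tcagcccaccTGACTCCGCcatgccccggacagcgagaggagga
Gclm, chr3:122245398-122245456, plus strand: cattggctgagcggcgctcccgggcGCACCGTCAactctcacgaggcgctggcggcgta
Txnrd1, chr10:82859089-82859147, plus strand: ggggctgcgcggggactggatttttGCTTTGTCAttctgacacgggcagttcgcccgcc

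The cores began 240, 134 and 92 bases before the start of Nfe2l2, Gclm and Txnrd1. None of these 3 genes passed the 2-fold rule in either comparison. A window of Mgst1, a further pathway gene that passed it in both, held a core 56 bases before its start. Of the 3 members that did pass it, Gstm1 and Nqo1 had windows, with no match of either motif. The 60 bases just before their starts are shown for comparison.
Gstm1, first window, chr3:108017974-108018033, minus strand: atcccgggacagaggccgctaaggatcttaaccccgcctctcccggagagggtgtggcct
Gstm1, second window, chr3:108017819-108017878, minus strand: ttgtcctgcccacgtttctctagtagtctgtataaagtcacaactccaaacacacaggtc
Nqo1, chr8:107403206-107403265, minus strand: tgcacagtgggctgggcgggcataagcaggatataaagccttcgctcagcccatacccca
A match describes these letters only, and its absence from a window says nothing of elements elsewhere near the gene.

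The members did not move as 1 block in either comparison. In G1KO, Gstm1 was the 1 gene past the 2-fold rule, higher at both of its probes, while Gsr, Hmox1 and Nqo1 were 1.59-fold to 1.76-fold lower. Gsta4 and Nqo1 passed the rule in the RNA labelled G2KO, both lower, by 3.11-fold and 2.40-fold. Thus 2 of 15 member probes (13.3%) passed in each comparison. Over all tested probes, 5.79% passed for G1KO and 6.37% for the RNA labelled G2KO.

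By direction, 1.99% of all tested probes were past 2-fold higher in G1KO and 3.80% lower. The figures for the RNA labelled G2KO were 2.31% higher and 4.06% lower. Both G1KO probes that passed belong to Gstm1, so the count stands for 1 gene. No member passed the rule in both comparisons. Averaged over probes, 5 genes were below 0 in both comparisons (Nfe2l2, Gclm, Gsr, Nqo1 and Hmox1) and 2 above 0 in both (Gclc and Gstm1), without regard to size.

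The median log2 ratio of the member probes was -0.13 in G1KO (-0.08 and -0.168 on the single arrays), against -0.002 for all tested probes, and -0.20 in the RNA labelled G2KO, against -0.007. The median size of the ratio, whatever its sign, was 0.67 for members and 0.21 for all tested probes in G1KO. It was 0.29 against 0.24 in the RNA labelled G2KO. The 3 probes of Gsr weigh in these medians, and 2 of them overlap.

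**Figure D1:**
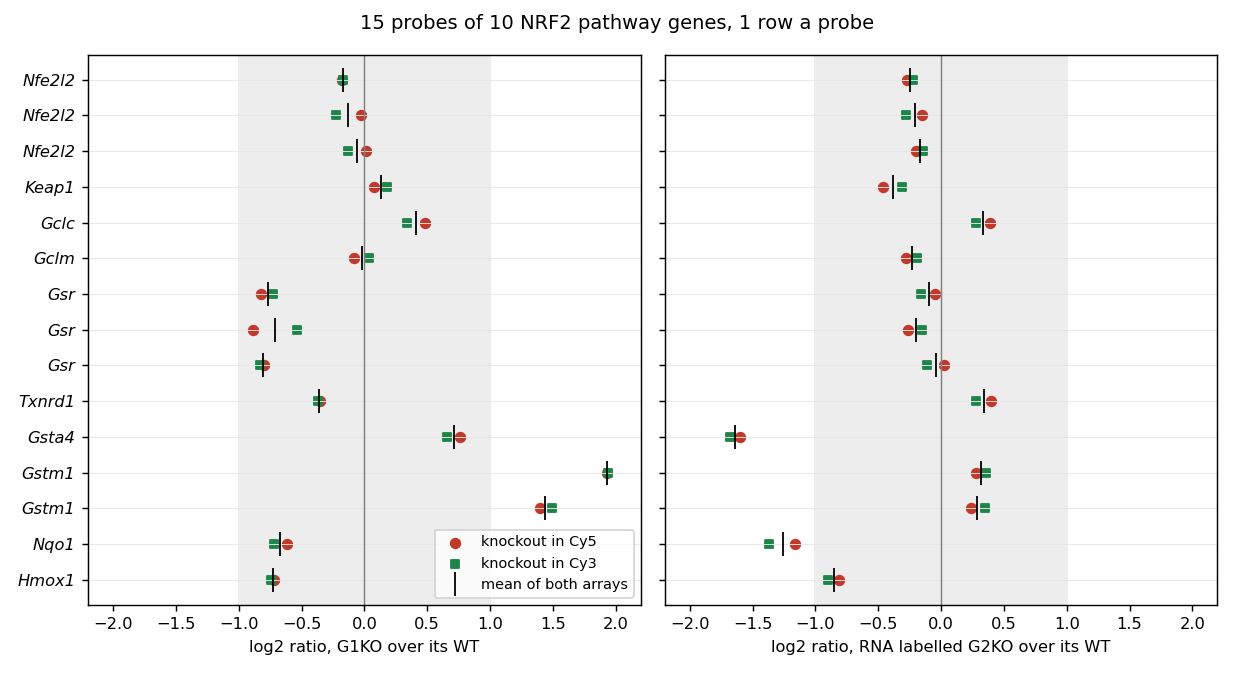
Log2 ratio of knockout over WT (x axis) for each of the 15 member probes (rows, labelled by gene) for G1KO (left) and the RNA labelled G2KO (right). Circles show the array with the knockout in Cy5, squares the array with the knockout in Cy3, bars their mean, and the grey band the range within 2-fold. Both Gstm1 probes lie outside the band on the left, at 1.93 and 1.44, and Gsta4 and Nqo1 on the right, at -1.64 and -1.26.

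The regulators stayed within 2-fold. Nfe2l2 had 3 probes on chromosome 2 (array positions are of the build mm8). At the brightest, chr2:75476553-75476612, the log2 ratios in G1KO were -0.18 and -0.17 on the 2 arrays, and in the RNA labelled G2KO -0.27 and -0.22. A neighbouring probe at chr2:75476699-75476758 gave means of -0.13 ± 0.15 and -0.21 ± 0.09. The third probe, at chr2:75492729-75492788, is assigned in the files to a cDNA clone, was dim (6.38 to 6.93 in log2 signal) and gave -0.06 ± 0.10 and -0.17 ± 0.05. In both comparisons the mean of every Nfe2l2 probe was below 0, by at most 1.19-fold. Against the brightest probe, 56.3% and 48.2% of all tested probes lay farther from 0.

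Keap1, the inhibitor, went opposite ways in the 2 comparisons at ratios well within 2-fold. It read 0.08 and 0.18 in G1KO, and -0.46 and -0.31 in the RNA labelled G2KO. Each pair of arrays kept the same sign, and the mean of -0.38 ± 0.11 is a 1.30-fold difference. The levels of Keap1 over the cultures, given below, spread more widely than these ratios.

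Glutathione synthesis starts with glutamate-cysteine ligase, whose catalytic subunit is Gclc and whose modifier subunit is Gclm. Gclc was slightly higher than WT in both comparisons, with 0.48 and 0.34 in G1KO and 0.39 and 0.28 in the RNA labelled G2KO. These are 1.33-fold and 1.26-fold. Gclm had no settled sign in G1KO, at -0.08 and 0.04, and read -0.28 and -0.19 in the RNA labelled G2KO. The 2 subunits of the enzyme thus had means of opposite sign in the RNA labelled G2KO, and neither was past 2-fold in either comparison.

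Gsr, the reductase that regenerates glutathione with NADPH, was lower in G1KO at each of its 3 probes. The probe at chr8:35163862-35163921 gave -0.82 and -0.73. The probe at chr8:35163841-35163900, which overlaps it, gave -0.80 and -0.83, and the probe at chr8:35163276-35163335 gave -0.89 and -0.54. All 6 values lay below 0 and none reached 2-fold, the means being 1.64-fold to 1.76-fold lower. Against its own WT, the RNA labelled G2KO had means of -0.10 ± 0.07, -0.04 ± 0.09 and -0.20 ± 0.08, so Gsr there was within 1.15-fold of its WT.

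Txnrd1, which reduces thioredoxin with NADPH, was lower in G1KO, at -0.35 and -0.37, and higher in the RNA labelled G2KO, at 0.40 and 0.28. The signs were steady between arrays, and the sizes were 1.28-fold and 1.26-fold. Of all tested probes, 30.1% and 35.9% lay farther from 0.

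The glutathione S-transferases held the largest differences among the members. Gstm1, of the mu class, was higher in G1KO by 1.93 and 1.94 at chr3:108140318-108140377, and by 1.40 and 1.49 at chr3:108140702-108140761. The probes gave 3.82-fold and 2.72-fold, and 1.70% and 3.19% of all tested probes lay farther from 0. The same probes read, for the RNA labelled G2KO, 0.32 ± 0.06 and 0.29 ± 0.08, or 1.25-fold and 1.22-fold higher. The probes lie within one gene and share its RNA, so they are not independent of each other.

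Gstm1 sits in a cluster of mu-class genes on chromosome 3 that are alike in sequence, and the probe sequences were not analysed here, so hybridisation of related transcripts cannot be told apart from that of Gstm1. Gstm3 passed the rule as well in G1KO, 3.33-fold higher. Gstm5 read 0.70 and 0.95, and Gstm2 and Gstm4 were at -0.30 ± 0.01 and 0.07 ± 0.09. Gstm6 and Gstm7 were not well above background on both arrays in either genotype of that pair. Gstm3 and Gstm5 were at 0.43 ± 0.03 and 0.31 ± 0.12 in the RNA labelled G2KO, where Gstm2 lay close to the 2-fold line at -0.91 and -1.08.

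Gsta4, of the alpha class, conjugates 4-hydroxynonenal, a product of lipid peroxidation. It read 0.76 and 0.66 in G1KO and -1.60 and -1.68 in the RNA labelled G2KO. The probe was printed on 10 spots, of which 8 to 10 were kept on each array. Over these spots the ratios ran from 0.60 to 0.83 in G1KO and from -1.75 to -1.49 in the RNA labelled G2KO, with an SD between spots of at most 0.09. The ranges of the 2 comparisons lay on either side of 0. That difference between the comparisons was not tested, since each rests on 1 culture per genotype.

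Nqo1, a quinone reductase that is often used as a marker of NRF2 activity, was lower than WT in both comparisons. It read -0.62 and -0.72 in G1KO, and -1.16 and -1.37 in the RNA labelled G2KO. The second passed the 2-fold rule at 2.40-fold, and the first, at 1.59-fold, did not. With each array centred on its median in place of the intensity-dependent correction, the G2KO mean was -1.19, but 1 array fell short of 2-fold and the call was lost.

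Hmox1, which breaks haem down to biliverdin, iron and carbon monoxide, was lower by similar sizes in both comparisons. Its log2 ratios were -0.72 and -0.74 in G1KO and -0.81 and -0.90 in the RNA labelled G2KO, or 1.66-fold and 1.81-fold lower. No value reached 2-fold. Farther from 0 lay 11.0% and 9.28% of all tested probes.

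**Figure D2:**
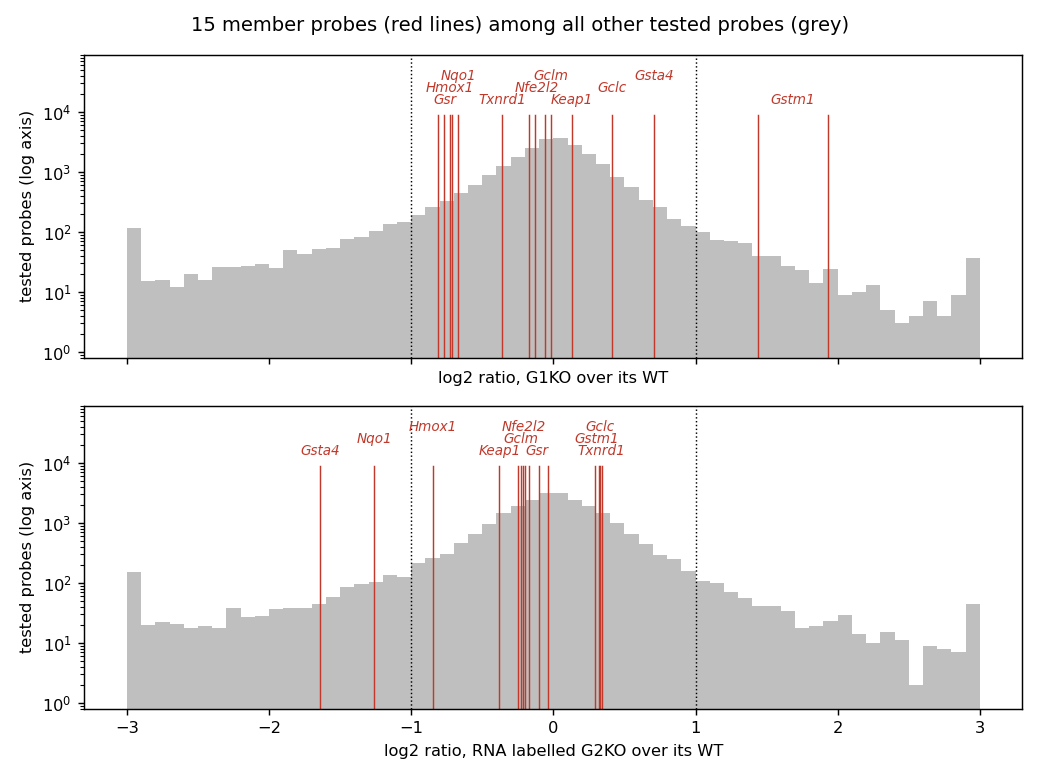
Number of tested probes (y axis, log scale) by log2 ratio of knockout over WT (x axis, bins of 0.1) for G1KO (top) and the RNA labelled G2KO (bottom). Grey bars are probes of other genes, the outermost bars also hold all probes beyond 3, red lines are the 15 member probes, and dotted lines mark 2-fold. In each panel 2 member probes lie past a dotted line, and the other member probes lie between the dotted lines.

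Levels in the 4 cultures show where each gene stood before any ratio was taken. A level here is the log2 signal of a probe in 1 channel after normalisation across all arrays, so each culture has a value in Cy5 and a value in Cy3. Levels are compared for 1 probe between cultures, never between probes. The 2 WT cultures shared no array, and neither did G1KO and the RNA labelled G2KO, so comparisons between the pairs are indirect.

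For Gstm1 (chr3:108140318-108140377) the levels in Cy5 and Cy3 were 12.04 and 11.89 in the WT of the G1KO pair and 13.82 and 13.98 in G1KO. They were 14.12 and 14.13 in the WT of the G2KO pair and 14.41 and 14.49 in the RNA labelled G2KO. The WT of the G1KO pair was thus the low culture, and G1KO came close to, but below, both cultures of the other pair. No neighbours in this order overlapped. The 2 WT cultures differed by 2.16 in log2 signal, more than G1KO differed from its WT.

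Gsta4 ordered the cultures in another way. Its levels were 8.91 and 8.96 in the WT of the G1KO pair, 9.72 and 9.56 in G1KO, 9.21 and 9.14 in the WT of the G2KO pair, and 7.54 and 7.53 in the RNA labelled G2KO. The last culture stood apart below the other 3. The WT cultures differed by 0.24, far less than the RNA labelled G2KO from its WT.

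Nqo1 was highest in the WT of the G1KO pair, at 11.29 and 11.24. G1KO followed at 10.62 and 10.57 and overlapped with the WT of the G2KO pair at 10.64 and 10.53. The RNA labelled G2KO was lowest, at 9.37 and 9.27. Thus G1KO, lower than its own WT, had the same level as the other WT within the spread of the dyes.

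Hmox1 gave 12.60 and 12.57 in the WT of the G1KO pair, 11.86 in both dyes in G1KO, 12.01 and 11.99 in the WT of the G2KO pair, and 11.18 and 11.12 in the RNA labelled G2KO. G1KO and the RNA labelled G2KO both lay below both WT cultures, with no overlap. Among the 10 members, Hmox1 was joined by Gclc, for which G1KO and the RNA labelled G2KO both lay above both WT cultures. Gclc stood at 11.83 to 11.90 in these 2 cultures and at 11.35 to 11.56 in the WT cultures, with overlap inside each of these groups. Gclm also had its WT cultures on top by their means, all within 0.23 and with G1KO overlapping WT. How many of all probes put G1KO and the RNA labelled G2KO on the same side of both WT cultures was not counted. These orders are therefore not shown to be particular to the members. Xist and the Y-linked genes also differed in the same direction in both comparisons, so sex and genotype cannot be told apart here.

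Gsr and Txnrd1 were set apart by pair more than by genotype. At chr8:35163862-35163921, Gsr was at 12.32 and 12.51 in the WT of the G1KO pair and 11.69 and 11.59 in G1KO, against 11.13 and 11.05 in the other WT and 11.00 and 10.97 in the RNA labelled G2KO. Txnrd1 was at 15.37 and 15.45, then 15.10 and 15.00, in the first pair, and at 14.20 and 14.13, then 14.53 and 14.48, in the second. Both cultures of the G1KO pair were above both cultures of the G2KO pair for each gene. The WT cultures differed in Gsr by 1.25 to 1.53 over its 3 probes and in Txnrd1 by 1.24.

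Keap1 and Nfe2l2 were also ordered by pair. Keap1 stood at 12.62 to 12.80 in the G1KO pair and at 13.17 to 13.63 in the G2KO pair. The brightest Nfe2l2 probe ran the other way, at 13.05 to 13.27 and 12.68 to 12.96. The inhibitor was therefore higher, and NRF2 mRNA lower, in both cultures of the G2KO pair.

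**Figure D3:**
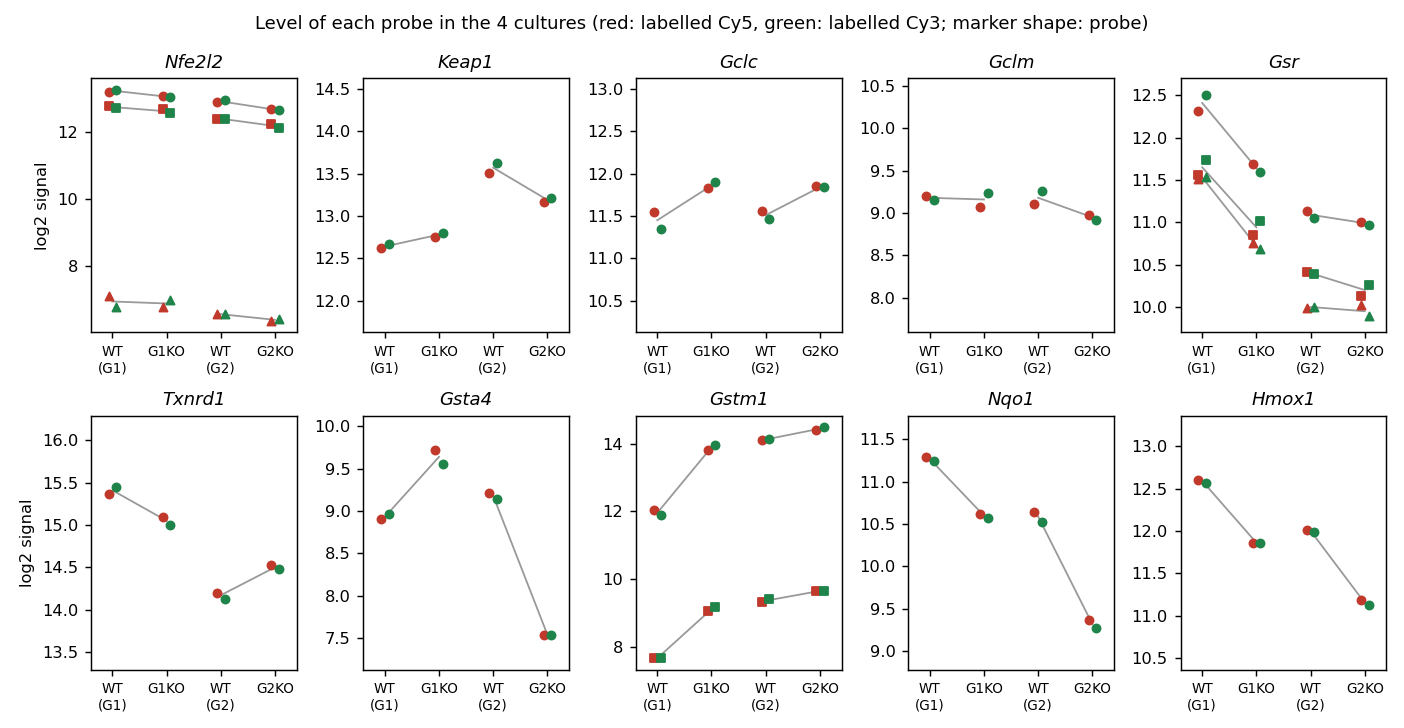
Log2 signal (y axis, scale differs by gene but spans at least 3 units) of every probe of the 10 members in the WT of the G1KO pair, G1KO, the WT of the G2KO pair and the RNA labelled G2KO (x axis). Red points are Cy5 and green points Cy3, marker shapes are probes, and lines join the means of the cultures that shared arrays. Gstm1 is lowest in the WT of the G1KO pair, at 11.96 on average, and Gsta4 in the RNA labelled G2KO, at 7.54.

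The difference between the WT cultures was past 2-fold in both dyes for 6 of 15 member probes, those of Gstm1 (higher in the WT of the G2KO pair) and of Gsr and Txnrd1 (lower). Over all probes tested the same way, 11.0% were. The median size of the WT difference was 0.68 for member probes and 0.31 for all. For 10 of 15 member probes the WT cultures differed more from each other than either knockout differed from its own WT. These were the probes of Gsr, Nfe2l2, Gstm1, Txnrd1 and Keap1, and probes of the same gene are not independent. The same count was not made over all probes, so whether it is particular to the members is not known. By median size over all tested probes, the WT difference (0.31) also exceeded the G1KO ratio (0.21) and that of the other comparison (0.24). Between G1KO and the RNA labelled G2KO, 2 member probes (Gsta4 and Nqo1, by -2.11 and -1.27) were past 2-fold, against 8.71% of all probes.

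The wider pathway was described with 94 further genes in 8 groups, of which 92 had a probe. In G1KO, 85 were tested, and 4 were higher and 7 lower by the 2-fold rule at 1 or more probes. In the RNA labelled G2KO, 86 were tested, with 3 higher and 6 lower. Of their probes 10.1% and 8.46% passed, against the 5.79% and 6.37% of all probes. Median log2 ratios were 0.07 and -0.06. In G1KO the split rests on the intensity-dependent correction. With median centring 3 were higher and 2 lower, and Bach2, Chac1, Ephx1, Gpx7, Gstt3 and Mgst1 no longer passed. The RNA labelled G2KO lost Aox1 and Gstk1 under that setting.

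Genes past the rule lay mainly among enzymes of detoxification. In the 20 other glutathione S-transferases, 3 of 17 tested genes were higher in G1KO (Gsta1, 4.36-fold, Gstm3, 3.33-fold, and Gsta2, 2.08-fold) and 2 lower (Mgst1 and Gstt3). In the RNA labelled G2KO 1 of 18 was higher (Mgst1) and 2 were lower (Gstt3, 7.98-fold, and Gstk1, 2.40-fold). Alpha-class genes are alike in sequence, so Gsta1 and Gsta2 may share signal. Gsta2 was well above background on 1 of 2 arrays in the WT of the G1KO pair.

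The enzymes acting on quinones, aldehydes and epoxides had 13 genes tested in each comparison. Akr1c14, an aldo-keto reductase of steroids, was lower in both, by 32.7-fold in G1KO and 8.50-fold in the RNA labelled G2KO. Ephx1, the microsomal epoxide hydrolase, was lower in G1KO at both probes. In the RNA labelled G2KO, Cbr3, a carbonyl reductase, was 8.27-fold lower, and Ephx1 and the aldehyde oxidase Aox1 (2.19-fold) were higher.

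Mgst1, a membrane-bound transferase, and Ephx1 passed the rule in opposite directions, though neither passed in G1KO with median centring. At its brighter probe Mgst1 read -1.35 and -1.42 in G1KO, and 3.21 and 3.06 in the RNA labelled G2KO. The other probe gave -1.71 ± 0.03 and 4.67 ± 0.33, with the WT of the G2KO pair above background on 1 of 2 arrays only. Ephx1 read -1.29 and -1.23, then 2.44 and 2.33, at 1 probe, and -1.23 ± 0.10 and 2.40 ± 0.17 at the other. In level, Mgst1 stood at 12.53 and 11.15 in the WT of the G1KO pair and G1KO, and at 8.25 and 11.39 in the WT of the G2KO pair and the RNA labelled G2KO, so the WT of the G2KO pair was the low culture. The mesothelial markers were lower in G1KO too, and Msln was higher in the RNA labelled G2KO, at 1.45 and 1.74. The other mesothelial markers (Wt1, Upk3b, Lrrn4 and Upk1b) were not well above background in either genotype of that pair. The part of the mesothelial markers in the values of Mgst1 and Ephx1 was not tested.

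Among genes of glutathione supply and use, Gpx7, a peroxidase of the endoplasmic reticulum, was lower in both comparisons, at -1.23 ± 0.04 (log2) for G1KO and -3.40 ± 0.03 for the RNA labelled G2KO. Chac1, which degrades glutathione, was 2.55-fold lower in G1KO and stood just short of the rule in the RNA labelled G2KO, at -0.98 ± 0.03. The other 12 genes tested in G1KO and the other 12 in the RNA labelled G2KO did not pass. With Akr1c14 and Gstt3, which was 2.23-fold lower in G1KO, Gpx7 was 1 of 3 pathway genes lower in both comparisons. Gpx7, Gstt3 and Chac1 lost the G1KO call with median centring, and Akr1c14 kept both calls. The collagen and Thy1 markers were lower in the RNA labelled G2KO as well, and their part was not tested.

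Among regulators near NRF2, 2 of 13 tested passed in G1KO. Bach2, a repressor that shares small Maf partners with NRF2, was 2.32-fold higher at 1 probe, and its second probe was not above background. Nfe2l3, a relative of NRF2, was at least 4.74-fold lower at a probe not above background in G1KO, whereas its other probe read -0.30 ± 0.14. Of 13 regulators, 0 passed in the RNA labelled G2KO, and Bach2 read -0.91 and -1.12. Bach2 lost its G1KO call with median centring, and passed as lower in the RNA labelled G2KO without background subtraction, with a normexp offset of 16, and in the log ratios of the scanner software and the series table. The bound on Nfe2l3 sets its WT signal against the dim signal, or against the detection floor of the array where that floor was higher.

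Thioredoxin and peroxiredoxin genes (11 and 12 tested), genes of superoxide and hydrogen peroxide (3 in each) and genes of NADPH supply (7 in each) had 0 past the rule in either comparison. Of the 7 haem and iron genes, Slc40a1, the iron exporter ferroportin, was 8.40-fold lower in the RNA labelled G2KO and none passed in G1KO. In level, Slc40a1 stood at 6.74 and 7.1 in the WT of the G1KO pair and G1KO. It stood at 10.61 in the WT of the G2KO pair, the high culture, and at 7.54 in the RNA labelled G2KO. The NADPH group had a median of -0.43 over 10 probes in the RNA labelled G2KO, against -0.007 for all probes, and 0.16 in G1KO. Pgd, Me1 and Tkt weigh in the former with 2 probes each. By gene, the RNA labelled G2KO had Pgd at -0.43, Me1 at -0.52, Idh1 at -0.35 and Tkt at -0.61. G6pdx (0.17), Idh2 (0.17) and Taldo1 (0.36) went the other way.

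**Figure D4:**
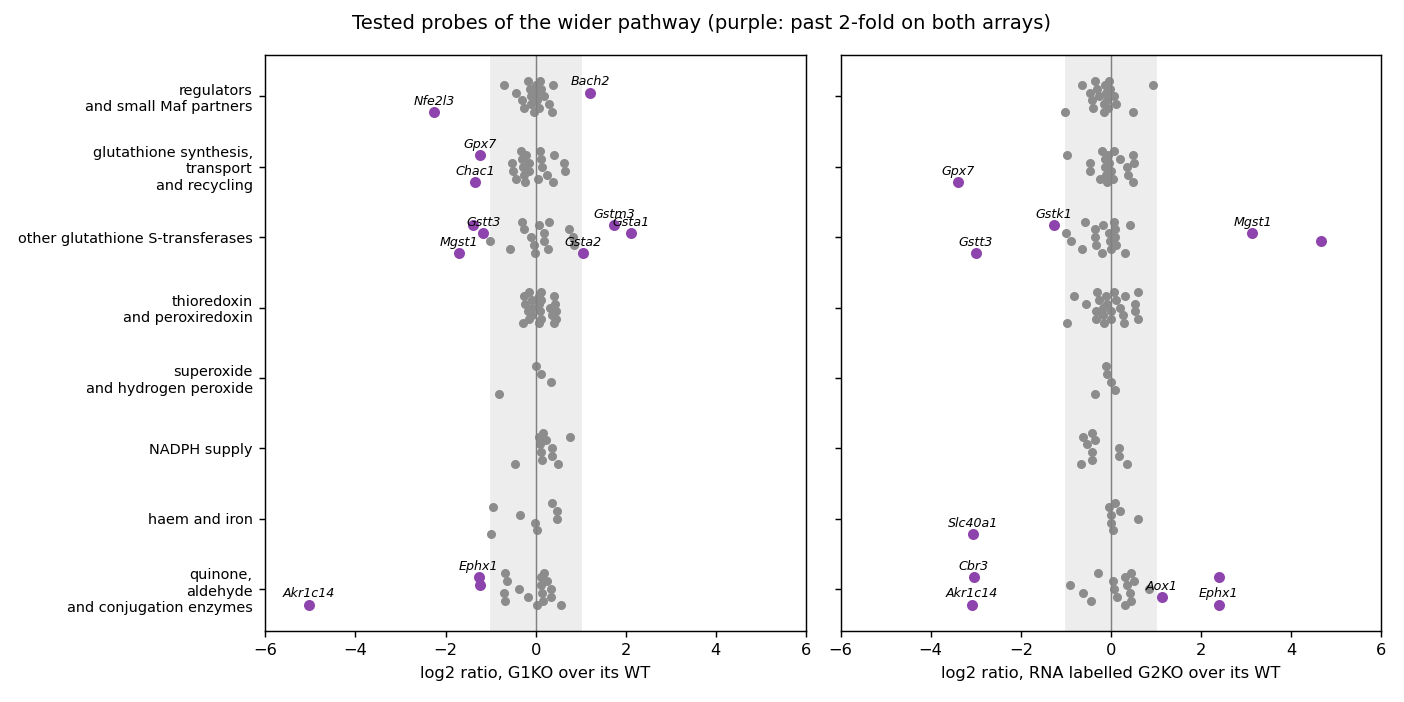
Mean log2 ratio of knockout over WT (x axis) of every tested probe in 8 groups of further pathway genes (rows) for G1KO (left) and the RNA labelled G2KO (right). Purple points passed the 2-fold rule on both arrays and are named once per gene, grey points did not, and the grey band is the range within 2-fold. Mgst1 and Ephx1 lie left of the band in G1KO and right of it in the RNA labelled G2KO, while Akr1c14, Gpx7 and Gstt3 lie left in both.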

How the data were processed

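Total RNA of 4 cultures was labelled with Cy5 or Cy3 and hybridised to 4 Agilent arrays of 2 colours on 1 slide, read in 1 scan, so no batch term could be fitted. Deposited were linear intensity values, the mean signal and local background median of each spot, without normalisation. Agilent Feature Extraction produced them, in version 10.5.1.1 by the headers and 9.1 by the submitters' processing notes. They also hold the log10 ratio that the authors' software made after its own correction, and the deposited series table holds the same log10 ratio. From the intensities, background was corrected with normexp (offset 50), dyes with loess within arrays (control and outlier spots weight 0), spots of a probe were averaged and signs turned to knockout over WT, in limma 3.58.1 and R 4.3.3. Levels used loess and Aquantile. No p-value was computed, as each genotype is 1 culture. Normalisation and the 2-fold rule were checked on simulated data, with changes well past 2-fold at bright probes. The filter for tested probes was not part of that check. Members and gene lists were chosen with earlier results of these data known. The naming rule took all members, pathway genes past the 2-fold rule, Ccng1, Ccng2 and sex-linked genes, with markers as counts. Single markers and the Gstm genes that did not pass were named after their values were seen. Alternatives covered background, normalisation, filter, threshold and single arrays.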

Additional observations from a re-analysis of the deposited data

Results flagged for a closer look

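Ephx1 and Mgst1 passed the 2-fold rule downwards in G1KO and upwards in the RNA labelled G2KO, on every array of each pair. With median centring in place of loess, neither gene passed in G1KO. The difference between the comparisons was not tested, because each genotype is 1 culture. Ephx1 read -1.26 and -1.23 in G1KO, and 2.39 and 2.40 in the RNA labelled G2KO, at its 2 probes. Mgst1 read -1.39 and -1.71, and 3.14 and 4.67. No member gene passed the rule in opposite directions.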

How the results depend on the processing

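No paired analysis was possible because each comparison holds 1 culture per genotype and its 2 arrays repeat the same RNA. The slide and scan could not be fitted as a block, since all arrays share both. Of 270 member values under the alternatives, 229 moved by no more than the SD between arrays, and 0 of the member ratios past the 2-fold rule changed sign. Part of the 229 could not have moved further. The filters left member ratios unchanged, as all member channels were well above background. A single array always lies within that SD of the mean of both. The scanner's log ratio and the series table also hold the same values, so the 229 is no measure of robustness. Values with an opposite sign came from 3 of 30 ratios, none above 0.06 in size. Member probes past the rule numbered 2 in each comparison with either array alone. They numbered 0 and 0 at a log2 threshold of 2, and 7 in G1KO at 0.58. The sizes also depended on the setting. Gsta4 in the RNA labelled G2KO ran from -2.05 to -1.6 (main -1.64), and the dimmer Gstm1 probe in G1KO from 1.4 to 1.87 (main 1.44). With median centring in place of loess, 1 member probe passed in the RNA labelled G2KO (Nqo1 was lost), 5 pathway genes passed in G1KO in place of 11 (without Bach2, Chac1, Ephx1, Gpx7, Gstt3 and Mgst1), Aox1 and Gstk1 were lost in the RNA labelled G2KO, and the member median in the RNA labelled G2KO was -0.121 in place of -0.202. That median ran from -0.203 to -0.155 over single arrays, and the G1KO median of -0.131 from -0.168 to -0.08. Pathway genes numbered 2 and 23 in G1KO at thresholds of 2 and 0.58, and 18 in the RNA labelled G2KO at 0.58, where 9 passed. Both the log ratio of the scanner software and the authors' series table gave 17 there, the 9 among them. Over all probes, those past the rule numbered 1479 for G1KO and 1619 for the RNA labelled G2KO, against 813 and 955 with median centring and 2855 and 3396 with the scanner's log ratio. The cause was not tested.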
